A study of Mus musculus with 8 samples.

Results

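Costimulation blockade was examined in CD4 T cells that had reacted in culture to the splenocytes of another mouse strain, an assay known as the mixed lymphocyte reaction. The members were the 4 CD4 arrays of an 8-array Affymetrix study, 2 from blockade-treated and 2 from untreated cultures, chosen by their titles, and every probe set on them was compared. The CD4_blockade group held CD4 cells of C57BL/6 responders cultured for 5 days with 50 µg each of anti-LFA-1, anti-CD40L and CTLA4-Ig. The CD4_untreated group held CD4 cells of C57BL/6 responders cultured for the same 5 days with no antibody added. In both groups, and in the matching CD8 groups used for one comparison, the responder splenocytes carried the dye CFSE, which is diluted as cells divide, and 200000 of them faced 800000 FVB/N splenocytes irradiated with 30 Gy. The cells put on the arrays were those that the sorter read as positive for CFSE and for the subset marker, so an undivided responder and one that had kept some dye were both eligible. Per the labels each group had 4 mice, but whether its arrays stood for separate animals or culture wells is left unsaid. Each p-value thus reflects only how far these arrays varied within a group, and that variation may be technical.

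A T cell that meets its antigen needs a costimulatory signal to divide and to become an effector cell. CTLA4-Ig binds the B7 molecules on the antigen-presenting cell and keeps them from the receptor CD28, anti-CD40L blocks the ligand by which the T cell licenses that presenting cell, and anti-LFA-1 blocks the integrin that holds the pair together. An activated CD4 cell is known to raise the high-affinity interleukin-2 receptor, to secrete cytokines, to enter the cell cycle and to change the interferon signalling of the cells around it.

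Each deposited value was a difference from the probe set's own median over the 8 arrays, treated here as log2 by assumption, since its base was not given in the sources used here. A value of 1 therefore means about 2-fold above that median, values of different genes cannot be compared as levels, and a gene's presence or absence cannot be read from them. A change is blockade minus untreated, each a mean of 2 arrays. Its standard error (SE) rests on a within-group spread that the fit pooled over all 8 arrays, the CD8 arrays among them. The SE is therefore not the spread of the CD4 arrays alone. Gene names were available only for the 409 probe sets in a list that the authors deposited after selecting it on these arrays for a treatment difference, and 289 genes could be named from it. Counts of named genes are descriptions of that list, and their directions are not independent evidence. Fewer cells of a type and less RNA per cell cannot be told apart in such bulk samples.

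The 2 arrays of a group lay close together. The difference between them had an SD over probe sets of 0.21 for blockade and 0.20 for untreated cells, and 0.0311% and 0.0933% of probe sets differed by more than 1 log2 unit. The array of CD4 untreated replicate 2 had low spike-in controls, with a median of -0.23 for the hybridization and -0.44 for the poly-A probe sets, and that of CD8 blockade replicate 1 had high ones, at 0.91 and 0.79. On the other 3 CD4 arrays these medians lay between -0.105 and 0.118. None of 13 T cell markers, Cd4 among them, was in the authors' list, so the sorted subset could not be checked by name.

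Treated and untreated arrays also differed in markers of other cell types, which are given first, since they accompany every result below. All 18 B cell markers that could be named, of 26 in the list, were called higher under blockade, against 26.6% of all named genes. Their mean lay at 0.89 and 0.77 under blockade and at -0.84 and -0.71 without it. The 7 named MHC class II genes, of 11, were also all higher, with means of 0.83 and 0.77 against -0.71 and -0.58. The 4 named macrophage and dendritic genes, of 21, had means of 1.17 and 1.01 against -0.84 and -0.81. The opposite held for granulocyte genes. The 10 named neutrophil genes, of 18, had means of -1.12 and -1.22 under blockade and 1.17 and 1.62 without it, and the 5 named mast cell and basophil genes, of 14, had means of -1.36 and -1.55 against 1.35 and 1.57. The part of these cell types in the results that follow was not tested. No natural killer, erythroid or platelet marker could be named from a probe set with 1 gene. However, 4 probe sets that the authors' list assigns to more than 1 haemoglobin gene each, and so mark red cells, were called higher under blockade, by 0.94 to 1.61 (adjusted p 0.0006 to 0.022). Their values lay between 0.37 and 0.70 on the blockade arrays and between -1.12 and -0.35 on the untreated arrays.

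**Figure D1:**
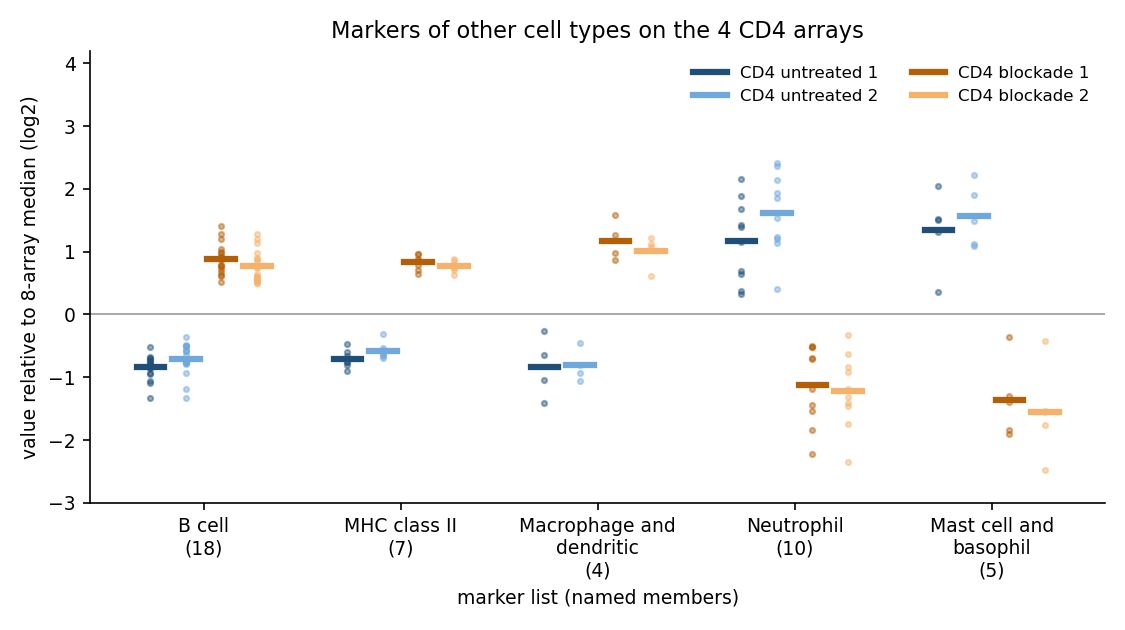
Values of the named markers of 5 other cell types on the 4 CD4 arrays (log2, relative to each gene's 8-array median); dots are genes and bars the mean of the list on 1 array. B cell, MHC class II and macrophage markers lie above 0 on both blockade arrays, and neutrophil and mast cell markers below it, with no overlap of the list means between treatments. Only genes that the authors selected on these arrays for a treatment difference could be named, which favours that separation.

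Blockade changed the CD4 profile in both directions. Of 45037 probe sets, 1650 had a limma adjusted p of at most 0.05, with 975 lower under blockade (2.16% of those tested) and 675 higher (1.5%). The falls were larger than the rises. The median change of the lower probe sets was -0.97 and that of the higher ones 0.695. A fall of at least 2 log2 units was called for 155 probe sets and a rise of that size for 12, and a fall of at least 4 log2 units for 21 and a rise of that size for 0. Over all probe sets the median change was 0.01, with 25th and 75th percentiles of -0.11 and 0.12. Both blockade arrays lay below both untreated arrays for 20.9% of all probe sets and above them for 23.8%, so a pair of groups that do not overlap says little on its own. Of the calls, 1256 lay outside the authors' list and carry no name here. Every fit that left out 1 array kept only 1 in its group. The fit without both arrays with unusual spike-ins kept 1 in the CD4 untreated and 1 in the CD8 blockade group. Calls lost in such fits can reflect the lost replicate as well as the array left out. The number of calls was 797 and 768 without CD4 blockade replicate 1 or 2, 1075 and 769 without CD4 untreated replicate 1 or 2, and 634 without both arrays with unusual spike-ins.

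Of the 289 named genes, 198 were lower (68.5%) and 77 higher (26.6%) under blockade, with a median change of -1.41. The 14 that did not pass were Nr4a2, Chil3, Lcn2, Ms4a3, Nuf2, Spc24, Chek1, Dtl, Ccne2, Ccnd2, Gpnmb, Igf1, Marcks and Myo1e, most of them named after their values were seen. The groups did not overlap for any of the 289, which the authors' choice of probe sets would favour. In fits that left out 1 array at a time, 202 of the 275 calls held in every fit. The size of the changes depended on the scaling. Quantile normalization was run on the deposited values, already centred by probe set. It gave every array the same distribution of these differences, so it cannot show which sizes are right. The largest falls became smaller, at -4.53 for Socs2, -4.14 for Gzmb and -4.005 for Iigp1, against -5.77, -5.41 and -5.16 as deposited. The largest rises became larger, at 4.49 for Crisp3 and 2.89 for Apoe, against 3.64 and 2.43.

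**Figure D2:**
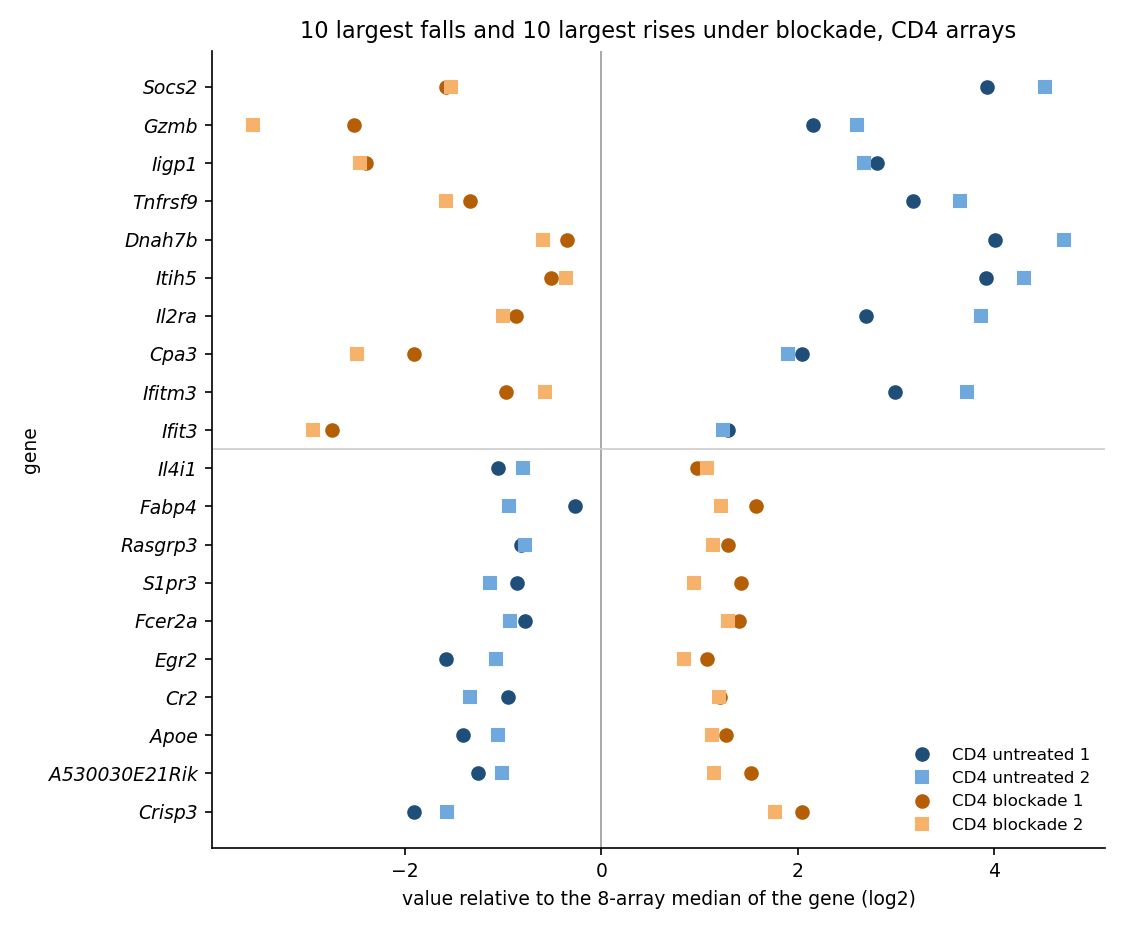
Value of the 10 largest falls and the 10 largest rises among called named genes on each CD4 array (log2, relative to the gene's 8-array median). The changes run from -5.77 to -4.10 for the falls and from 1.95 to 3.64 for the rises. Only genes whose treatments do not overlap were eligible, so the separation seen for all 20 genes was fixed by that choice.

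The interleukin-2 receptor and the genes it is known to induce held the largest fall. Of 12 named members of the list of cytokine receptors and JAK-STAT signalling, 11 fell and 1 rose, with a median change of -2.29. Among all named genes 68.5% fell and 26.6% rose, with a median of -1.41. Socs2, an inhibitor of cytokine signalling that STAT5 is known to induce, lay at -1.58 and -1.53 under blockade and at 3.93 and 4.51 without it, a change of -5.77 ± 0.17 (54.7-fold in size, adjusted p = 1.2e-06). Its 2 listed probe sets changed by -6.29 and -5.26. Il2ra, which encodes the high-affinity chain of the interleukin-2 receptor, lay at -0.873 and -0.997 under blockade and at 2.69 and 3.86 without it. The change was -4.21 ± 0.32 (adjusted p = 0.000203), and its 2 probe sets differed from each other, at -5.18 and -3.24. Cish, another STAT5-induced inhibitor, lay at -0.98 and -0.61 against 2.69 and 2.97. The blockade arrays were low and the untreated arrays high for each of these genes, and for Il2ra the untreated arrays stood further apart than the blockade arrays did.

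Cish fell by 3.63 ± 0.15 (adjusted p = 7.69e-06), and Socs1, which inhibits interferon signalling, changed by -2.69 ± 0.14. Lif, a cytokine of the interleukin-6 family, changed by -2.65 ± 0.28. A further 5 members that fell lay between -1.92 and -1.21. Il7r was the one member that rose. This gene encodes the alpha chain of the interleukin-7 receptor, which resting T cells carry and which activation is known to lower. It lay at 0.46 and 0.49 under blockade and at -0.78 and -0.82 without it, a change of 1.27 ± 0.09 (adjusted p = 0.000135).

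The promoter of Cish is shown because STAT factors, which act downstream of this receptor family, are known to bind the palindrome TTCNNNGAA. Sequences are from RefSeq (GRCm38.p6), from 250 bases before to 50 after the annotated start, and 227 of the 289 named genes matched one; both strands were searched for every motif, and capitals mark the matches, in either orientation. Cish, at chr9:107296409-107296708 on the + strand, held 2 such palindromes, beginning at positions 1 and 12 counted from the start.
Cish: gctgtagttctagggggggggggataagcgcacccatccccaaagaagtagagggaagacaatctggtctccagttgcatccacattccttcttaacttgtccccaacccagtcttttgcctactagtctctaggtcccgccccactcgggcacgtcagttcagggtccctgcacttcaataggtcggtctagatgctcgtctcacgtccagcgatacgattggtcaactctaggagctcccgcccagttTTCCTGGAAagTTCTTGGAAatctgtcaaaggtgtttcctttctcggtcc
The palindrome was found for 3 of 9 members of the list with a window (33.3%), Cish, Csf2rb2 and Il7r, and for 9.55% of all 27025 genes with one. Of the 3, Cish and Csf2rb2 fell and Il7r rose.

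Costimulatory and activation receptors fell, one of them far more than the rest. All 5 named members of the list of 27 fell, with a median of -1.17, against 68.5% and a median of -1.41 for all named genes. Tnfrsf9, the costimulatory receptor 4-1BB that activated T cells put on their surface, lay at -1.33 and -1.57 under blockade and at 3.17 and 3.65 without it, a change of -4.86 ± 0.16 (adjusted p = 1.89e-06). Cd69, an early activation marker, lay at -0.40 and -0.37 against 0.51 and 0.73, a change of -1.01 ± 0.16. Tfrc, the transferrin receptor that supplies iron to dividing cells, lay at -0.45 and -0.35 against 0.66 and 1.17. Its change was -1.31 ± 0.22 (adjusted p = 0.0147). Cd86, a B7 ligand that CTLA4-Ig binds, changed by -1.17 ± 0.20, and Treml2 by -0.89 ± 0.11. Tnfrsf9 stood apart from the 4 others, whose changes spanned only -1.31 to -0.89. The calls rested on few arrays: without CD4 blockade replicate 1, CD4 blockade replicate 2 or CD4 untreated replicate 2, 3, 2 and 2 of the 5 passed, with Cd69 and Tfrc lost in each case and Cd86 in the last 2 (adjusted p 0.074 to 0.135).

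Cd274, the ligand PD-L1 that restrains T cells and is known to be raised by interferons, was the one named member of 17 inhibitory receptors and ligands. It lay at -1.45 and -1.67 under blockade and at 1.40 and 1.31 without it, a change of -2.91 ± 0.11 (adjusted p = 2.61e-06).

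Gzmb, the granule protease granzyme B of cytotoxic lymphocytes, had the second largest fall of the named genes. It lay at -2.51 and -3.54 under blockade and at 2.15 and 2.60 without it. The change was -5.41 ± 0.34 (adjusted p = 6.68e-05), and the 2 blockade arrays differed by 1.03, the widest gap among the 3 named members of this list. The serine protease inhibitors Serpina3g and Serpinb6b changed by -3.13 ± 0.13 and -1.71 ± 0.23. The call of Serpinb6b was lost without either blockade array (adjusted p 0.0505 and 0.0506).

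All 8 named cytokines and chemokines of a list of 45 were called lower, against 68.5% of all named genes. Their median was -2.33, against -1.41. Il12a, a subunit of interleukin-12 that is not in that list, rose by 1.44 ± 0.20, and its call was lost without CD4 blockade replicate 2 (adjusted p = 0.0547). Penk, which encodes the precursor of the enkephalin peptides and is made by some activated T cells, lay at -2.52 and -1.79 under blockade and at 1.79 and 2.07 without it, a change of -4.09 ± 0.22. Csf2, the growth factor GM-CSF of effector CD4 cells, lay at -1.02 and -0.80 against 1.62 and 1.37, a change of -2.40 ± 0.13 (adjusted p = 2.86e-05). Ccl3, a chemokine that draws monocytes and T cells, changed by -2.26 ± 0.16 and Cxcl10, a chemokine induced by interferon-gamma, by -1.67 ± 0.19. These genes were low on both blockade arrays and high on both untreated arrays. Ccl6 and Ccl9, chemokines known mainly from myeloid cells, changed by -3.47 ± 0.41 and -2.01 ± 0.42. Of the myeloid markers given above, the neutrophil list had a lower mean under blockade and the macrophage and dendritic list a higher one. The errors of Ccl6 and Ccl9 were the widest of the cytokine list and take in the CD8 untreated arrays. Those stood at 2.61 and 1.10 for Ccl6 and at 1.88 and 0.25 for Ccl9. On the CD4 untreated arrays the values were 2.36 and 2.04 for Ccl6 and 1.49 and 1.40 for Ccl9. With only the CD4 arrays all 8 genes of the list were called lower. The 2 listed probe sets of Ccl6 changed by -4.15 and -2.79. The call of Ccl9 was lost without any one of the 4 CD4 arrays or either CD8 blockade array (adjusted p 0.0622 to 0.193), and 5 of the 8 calls, without Ccl6 and Ccl9 among them, were left without both arrays with unusual spike-ins.

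Genes that antigen receptor signals are known to induce did not move one way. Egr2, a transcription factor linked to T cell unresponsiveness, lay at 1.07 and 0.84 under blockade and at -1.58 and -1.07 without it, a rise of 2.28 ± 0.17 (adjusted p = 0.000175). Egr1, an immediate early factor of the same family, lay at 0.74 and 0.79 against -0.98 and -0.80, a rise of 1.66 ± 0.14. The nuclear receptor Nr4a3, also induced by the antigen receptor, lay at -0.80 and -0.89 against 1.03 and 1.62 and fell by 2.17 ± 0.20. Nr4a2 had a change of -1.08 ± 0.25 and did not pass (adjusted p = 0.0577). It passed without CD4 untreated replicate 1 and without either CD8 untreated array. Of 42 genes of trafficking, the 2 that could be named rose, against 26.6% of all named genes. The chemokine receptor Ccr6 rose by 1.16 ± 0.12 and the sphingosine 1-phosphate receptor S1pr3 by 2.18 ± 0.18. S1pr3 lay at 1.42 and 0.95 under blockade and at -0.86 and -1.14 without it. None of 29 lineage transcription factors could be named.

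Interferon-inducible genes fell together. In the type I interferon list all 32 named genes were called lower, with changes from -4.13 to -0.98 and a median of -1.87. Among all named genes 68.5% were called lower, with a median of -1.41. Ifit3, an antiviral protein of the Ifit family, lay at -2.74 and -2.94 under blockade and at 1.29 and 1.24 without it, a change of -4.10 ± 0.10 (adjusted p = 7.35e-07). Ifit1, which recognises foreign RNA caps, lay at -1.55 and -1.55 against 2.24 and 2.08 and changed by -3.71 ± 0.12. Ifitm3, a membrane protein that hinders virus entry, lay at -0.97 and -0.58 against 2.98 and 3.72, a change of -4.13 ± 0.27. The arrays of a group lay close together for Ifit1 and Ifit3 and further apart for Ifitm3. Ifitm1 and Rtp4 changed by -3.19 ± 0.17 and -3.06 ± 0.12.

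All 12 named interferon-inducible GTPases of 26 were also lower, with a median of -3.22. These proteins are known to attack the vacuoles of intracellular pathogens. For all named genes the share called lower was 68.5% and the median -1.41. Iigp1 lay at -2.39 and -2.46 under blockade and at 2.81 and 2.67 without it, a change of -5.16 ± 0.11 (adjusted p = 5.41e-07). The guanylate-binding protein Gbp6 lay at -2.23 and -2.34 against 1.80 and 1.68, a change of -4.02 ± 0.10. Gbp2b and Gbp2 changed by -3.64 ± 0.09 and -3.29 ± 0.10, Irgm2 by -3.27 ± 0.10 and Gvin1 by -3.25 ± 0.13. Gbp genes and Irg genes are families of near copies, and whether a probe set binds several members was not tested. Of 10 other genes linked to interferon-gamma or class I presentation, 9 fell and 1 rose, against 68.5% and 26.6% of all named genes. H2-T24, a class I gene, changed by -2.92 ± 0.26, the transcription factor Irf1 by -1.79 ± 0.12 and the tryptophan tRNA ligase Wars by -1.44 ± 0.10. Ciita, the transactivator of MHC class II genes, was the member that rose. It lay at 0.65 and 0.88 under blockade and at -0.60 and -0.54 without it, a rise of 1.33 ± 0.12 (adjusted p = 0.000564). The 12 GTPase calls and the 10 interferon-gamma calls held in every fit without 1 array, and the type I list kept at least 30 of 32.

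The promoters of Ifitm3 and Gbp2b are shown as those of the largest fall of each interferon list with a match to GAAANNGAAA, the core of the element that interferon-activated factors are known to bind. Ifitm3, at chr7:141010695-141010994 on the - strand, had matches beginning at positions 3 and 20, and Gbp2b, at chr3:142594597-142594896 on the + strand, had one at -137 in the reverse orientation.
Ifitm3: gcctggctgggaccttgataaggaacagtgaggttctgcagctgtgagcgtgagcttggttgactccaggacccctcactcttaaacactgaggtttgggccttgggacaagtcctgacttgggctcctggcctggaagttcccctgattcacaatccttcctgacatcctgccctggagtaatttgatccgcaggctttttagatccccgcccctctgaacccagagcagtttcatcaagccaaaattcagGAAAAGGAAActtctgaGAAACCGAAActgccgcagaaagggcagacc
Gbp2b: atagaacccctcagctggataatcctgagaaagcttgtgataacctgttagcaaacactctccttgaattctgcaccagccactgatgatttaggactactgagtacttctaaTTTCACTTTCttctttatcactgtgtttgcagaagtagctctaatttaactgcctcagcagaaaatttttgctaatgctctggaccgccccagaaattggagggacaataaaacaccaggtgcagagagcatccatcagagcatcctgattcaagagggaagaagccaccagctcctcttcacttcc
The element was found for 14 of 26 type I interferon genes with a window (53.8%) and for 7 of 8 GTPase genes (87.5%), against 35 of the 227 named genes (15.4%) and 3.99% of all genes with a window. It overlapped a match of TTCNNNGAA in 24 of 32851 windows.

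Genes of cell division fell, and they also differed between the untreated arrays. Of 12 named cyclins, cyclin-dependent kinases, E2F factors and their inhibitors, 10 were called lower and 2 did not pass, with a median of -1.57. For all named genes the share called lower was 68.5% and the median -1.41. Ccnb2, a mitotic cyclin, lay at -1.12 and -1.14 under blockade and at 1.10 and 2.17 without it, a change of -2.77 ± 0.37 (adjusted p = 0.00454). Ccna2, the cyclin of S phase and early mitosis, lay at -0.90 and -1.23 against 0.91 and 1.59 and changed by -2.32 ± 0.25. Cdk1, the kinase that drives mitosis, lay at -0.81 and -0.78 against 0.96 and 1.52, a change of -2.04 ± 0.17. Blockade arrays were low for all 3 genes, and the second untreated array was the highest. Cdkn1a, the cell cycle inhibitor p21, moved in the same direction as the cyclins, with a change of -2.30 ± 0.19. Cdk6 and the factor E2f8 changed by -2.14 ± 0.25 and -1.68 ± 0.27. Ccne2 and Ccnd2, cyclins of the entry into S phase, had changes of -1.19 ± 0.31 and -0.88 ± 0.23 and did not pass (adjusted p = 0.087 and 0.0864).

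Of 33 named genes of mitosis and the spindle, 31 were called lower and 2 did not pass, against 68.5% lower among all named genes. The median was -1.54, against -1.41, with a narrow range from -2.66 to -0.97. Mki67, the proliferation marker Ki-67, lay at -0.92 and -0.79 under blockade and at 1.08 and 1.64 without it, a change of -2.22 ± 0.17 (adjusted p = 0.000229). Birc5, the survivin of the chromosomal passenger complex, lay at -1.05 and -1.24 against 1.11 and 1.92 and changed by -2.66 ± 0.30. Top2a, the topoisomerase that untangles chromosomes, lay at -0.86 and -0.93 against 1.19 and 1.73, a change of -2.35 ± 0.19. The spindle checkpoint kinase Bub1 changed by -2.49 ± 0.23, the ubiquitin-conjugating enzyme Ube2c by -2.33 ± 0.23 and the kinase Pbk by -2.21 ± 0.31. Nuf2 and Spc24, subunits of a kinetochore complex, had changes of -1.41 ± 0.34 and -1.34 ± 0.31 and did not pass (adjusted p = 0.0659 and 0.0571).

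Of 9 named genes of DNA replication and repair, 7 were called lower and 2 did not pass, with a median of -1.96. That share of falls is not far from the 68.5% of all named genes, whose median was -1.41. Uhrf1, which maintains DNA methylation through replication, lay at -0.75 and -0.96 under blockade and at 0.88 and 1.83 without it, a change of -2.21 ± 0.28 (adjusted p = 0.00359). Rrm2, a subunit of ribonucleotide reductase, lay at -0.79 and -0.92 against 0.87 and 1.71 and changed by -2.15 ± 0.24. Cdc6, which licenses replication origins, changed by -2.12 ± 0.34, the clamp-associated factor Pclaf by -2.08 ± 0.26 and the thymidine kinase Tk1 by -1.52 ± 0.33. Chek1, a checkpoint kinase, and Dtl, a ubiquitin ligase subunit of S phase, had changes of -1.41 ± 0.35 and -1.34 ± 0.40 and did not pass.

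The calls of these 3 lists depended on single arrays more than those of the interferon lists did. Without CD4 blockade replicate 1, CD4 blockade replicate 2 or CD4 untreated replicate 2, the cyclin list kept 6, 6 and 7 of its 10 calls, the mitosis list 19, 19 and 20 of 31, and the replication list 3, 3 and 4 of 7. When the 2 arrays with unusual spike-ins were left out, the lists had 4, 18 and 4 calls. Among the genes given here, E2f8 lost its call without either blockade array and Pbk without CD4 untreated replicate 2. Cdc6 and Tk1 lost theirs without any one of those 3 arrays, and Tk1 also without either CD8 untreated array (adjusted p 0.0535 to 0.22). Ccnb2, Cdk6 and Pclaf kept theirs in these fits and lost it without both arrays with unusual spike-ins (adjusted p = 0.0527, 0.0557 and 0.0688).

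The difference between the untreated arrays followed the lists. CD4 untreated replicate 2 was higher than replicate 1 for all 12 cyclin list genes, all 33 mitosis genes and all 9 replication genes, by a median of 0.67, 0.63 and 0.95. For the GTPases it was higher for 1 of 12, with a median difference of -0.11, and for the type I interferon genes for 9 of 32, with a median of -0.14. Over all probe sets it was higher for 48.3%, with a median of -0.01, and over the 289 named genes for 65.1%, with a median of 0.17. Replicate 2 is also the array with low spike-in controls, and the part of that in the difference was not tested. Between the blockade arrays the medians of these 5 lists differed by at most 0.215.

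**Figure D3:**
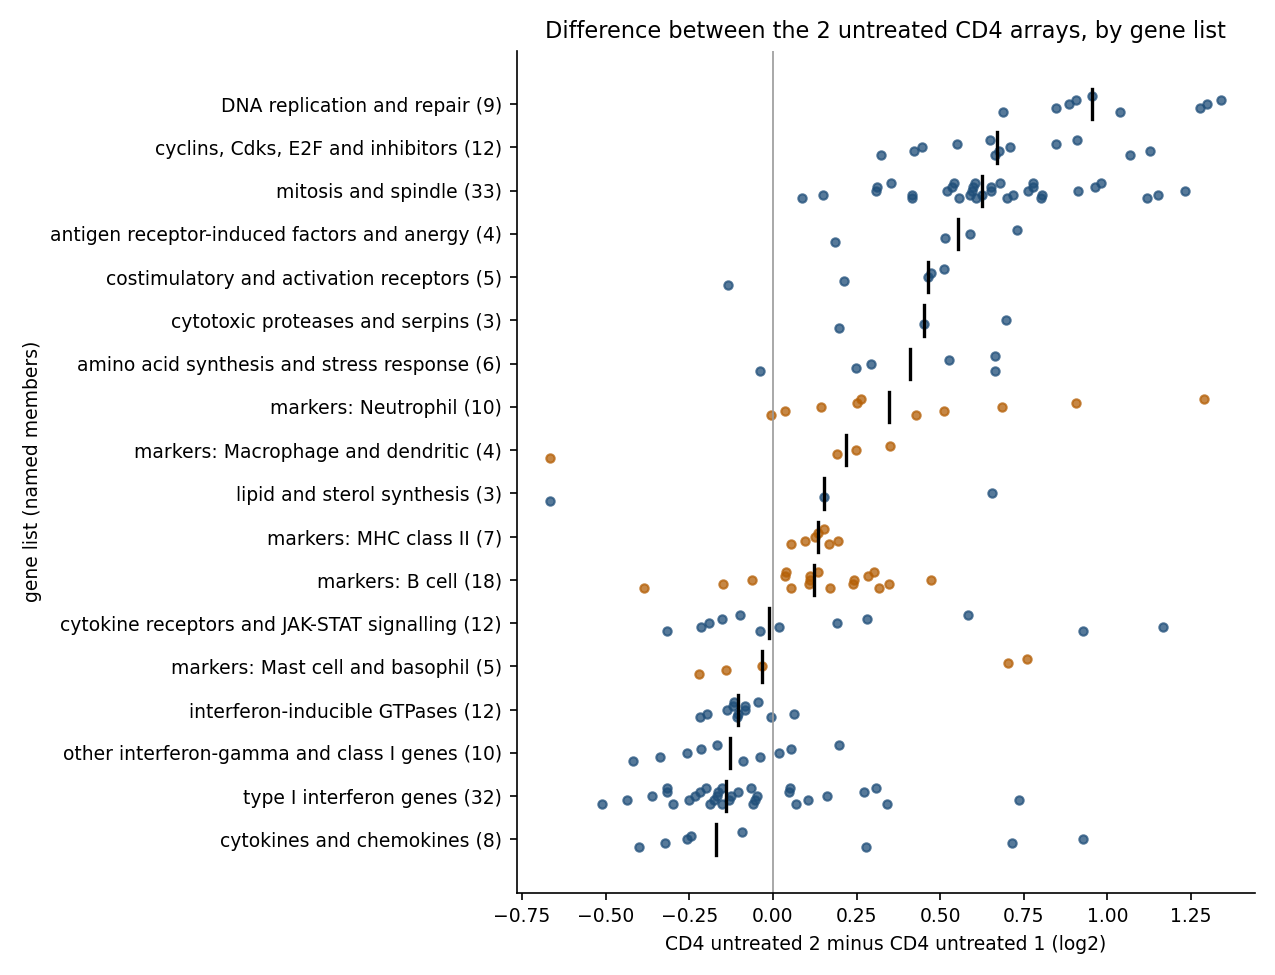
CD4 untreated replicate 2 minus replicate 1 for each named gene (log2), by gene list; dots are genes, bars medians, and the number of named genes stands in brackets. The replication, cyclin and mitosis lists lie wholly above 0, with medians of 0.95, 0.67 and 0.63, and the GTPases lie at about 0, with a median of -0.11.

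The promoters of Top2a and Uhrf1 are shown as those of the largest falls with a match in the mitosis and replication lists. Late cell cycle genes are known to carry the short element TTTGAA, called CHR, and genes of S phase a site of E2F factors, searched here as TTGGCGC, the form TTCCCGC, the form TTGCCGC or the form TTCGCGC. Top2a, at chr11:99024140-99024439 on the - strand, had CHR matches at -179 and at -23, and Uhrf1, at chr17:56303087-56303386 on the + strand, had an E2F match at -48.
Top2a: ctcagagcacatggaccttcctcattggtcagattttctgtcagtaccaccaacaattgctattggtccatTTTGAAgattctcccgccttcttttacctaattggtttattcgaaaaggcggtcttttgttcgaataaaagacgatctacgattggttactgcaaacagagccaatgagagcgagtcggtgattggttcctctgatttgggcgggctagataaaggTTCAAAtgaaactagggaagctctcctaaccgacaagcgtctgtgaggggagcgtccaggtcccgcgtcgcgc
Uhrf1: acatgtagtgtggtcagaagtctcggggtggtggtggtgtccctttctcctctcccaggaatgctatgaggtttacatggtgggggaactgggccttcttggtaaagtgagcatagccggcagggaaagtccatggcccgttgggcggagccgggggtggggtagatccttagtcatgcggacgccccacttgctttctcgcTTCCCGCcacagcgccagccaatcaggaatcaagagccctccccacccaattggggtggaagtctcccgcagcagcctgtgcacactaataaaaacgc
CHR was found for 16 of 27 mitosis genes with a window (59.3%) and 5 of 9 of the cyclin list (55.6%), against 0 of 7 replication genes and 20.2% of all genes. The E2F letters were found for 6 of 7 replication genes (85.7%), against 7 of 27 mitosis genes (25.9%) and 10.9% of all genes. CHR overlapped TTCNNNGAA in 140 of 32851 windows and an E2F match in 0.

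Named metabolic genes moved in both directions, and 8 of 11 in these 3 lists were lower, a share near the 68.5% of all named genes. The glycolytic enzymes Hk2 and Tpi1 were the only named members of 24 and changed by -1.64 ± 0.17 and -1.23 ± 0.21. Of 6 named genes of amino acid synthesis and its stress response, 5 fell. Asns, which makes asparagine, lay at -0.77 and -1.02 under blockade and at 0.77 and 1.44 without it, so it fell by 2.00 ± 0.22 (adjusted p = 0.00169). Psat1 and Shmt1, enzymes of serine and one-carbon metabolism, changed by -1.52 ± 0.17 and -1.26 ± 0.15, and the transaminase Bcat1 by -1.36 ± 0.23. Il4i1, a secreted amino acid oxidase of antigen-presenting cells, rose instead, by 1.95 ± 0.13. Of lipid genes, the isoprenoid enzyme Idi1 fell by 1.34 ± 0.20, while the desaturase Scd1 rose by 1.17 ± 0.13 and the fatty acid carrier Fabp4 by 2.00 ± 0.41. Fabp4 and Il4i1 also stand in the macrophage list above. The calls of Tpi1 and Bcat1 were lost without either blockade array, that of Bcat1 also without CD4 untreated replicate 2, and that of Idi1 without CD4 blockade replicate 2. Shmt1, Tpi1, Idi1 and Bcat1 lost their calls when the 2 arrays with unusual spike-ins were left out (adjusted p 0.0542 to 0.148). That of Fabp4 was lost without any one of the 4 CD4 arrays or either CD8 untreated array and with the replicate block (adjusted p 0.0506 to 0.254 without 1 array).

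**Figure D4:**
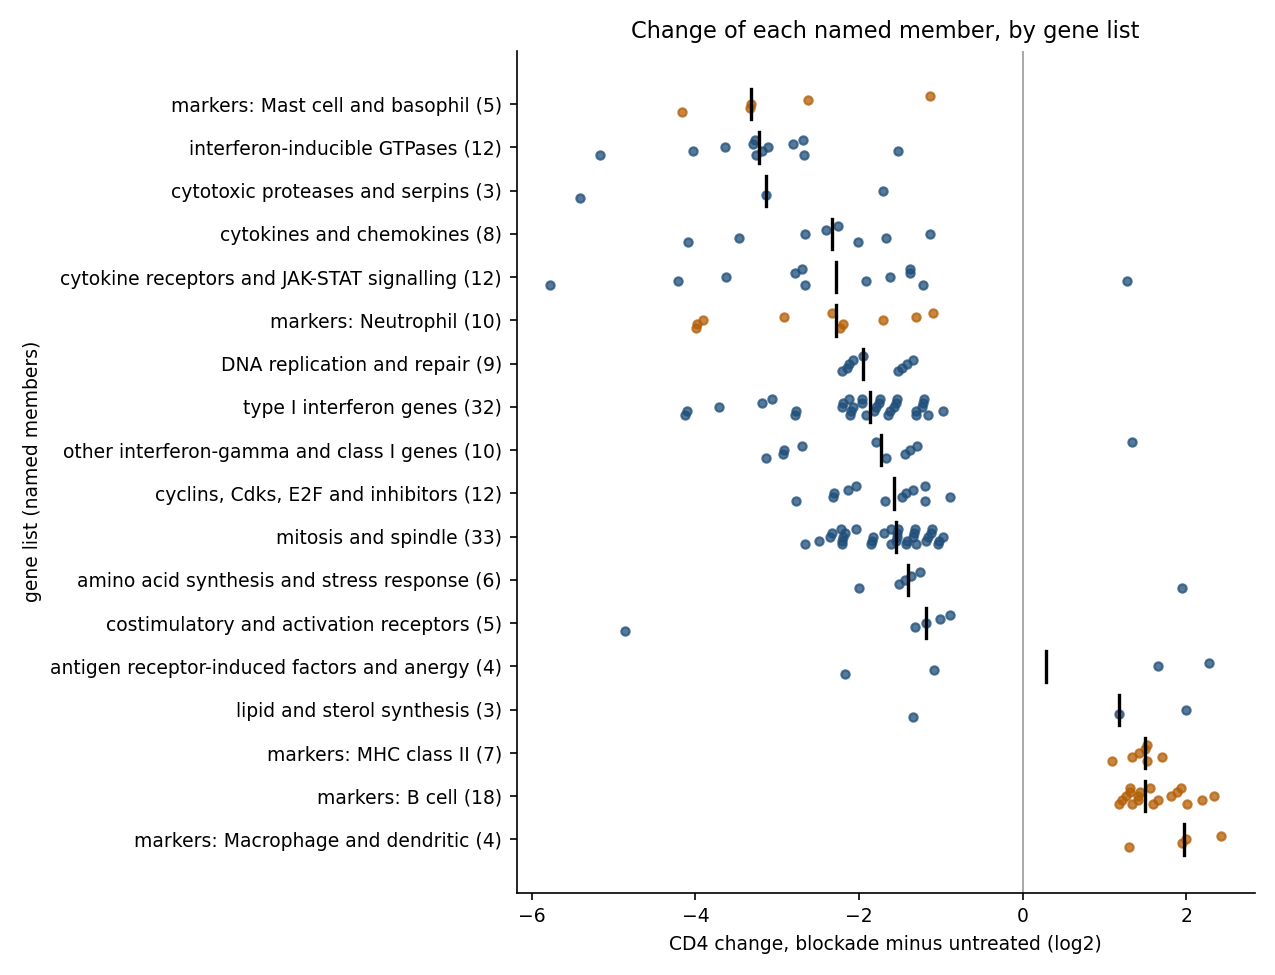
CD4 change of each named gene (blockade minus untreated, log2), by gene list; dots are genes, bars medians, brackets the number of named genes, and marker lists of other cell types are in orange. The medians run from -3.31 for mast cell and basophil markers to 1.97 for macrophage and dendritic markers, and the B cell markers span only 1.18 to 2.34.

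B cell genes rose by similar amounts. Cr2, the complement receptor of mature B cells, lay at 1.20 and 1.19 under blockade and at -0.95 and -1.34 without it, a rise of 2.34 ± 0.14 (adjusted p = 6.48e-05). Fcer2a, the low-affinity IgE receptor, lay at 1.40 and 1.29 against -0.78 and -0.93, a rise of 2.20 ± 0.17. The exchange factor Rasgrp3 rose by 2.01 ± 0.10, the adaptor Pik3ap1 by 1.93 ± 0.12, the IgM receptor Fcmr by 1.89 ± 0.12 and the inhibitory coreceptor Cd72 by 1.82 ± 0.11. The other 12 lay between 1.18 and 1.66. Both blockade arrays were above both untreated arrays for all 18, but the groups overlapped for none of the 289 named genes. The calls of all 18 and of the 7 class II genes held in every fit tried. The class II genes H2-Ab1, H2-Aa, H2-Eb1, H2-DMb2 and Cd74 rose by 1.70 ± 0.11, 1.52 ± 0.10, 1.52 ± 0.10, 1.49 ± 0.12 and 1.43 ± 0.10. These genes present peptides to CD4 cells and belong to B cells, macrophages and dendritic cells, and Ciita, which drives them, rose beside them as given above.

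The promoter of H2-Aa is shown because class II genes are known to share a CCAAT-type box read by a common factor. At chr17:34287774-34288073 on the - strand it had a match at -48 in the reverse orientation.
H2-Aa: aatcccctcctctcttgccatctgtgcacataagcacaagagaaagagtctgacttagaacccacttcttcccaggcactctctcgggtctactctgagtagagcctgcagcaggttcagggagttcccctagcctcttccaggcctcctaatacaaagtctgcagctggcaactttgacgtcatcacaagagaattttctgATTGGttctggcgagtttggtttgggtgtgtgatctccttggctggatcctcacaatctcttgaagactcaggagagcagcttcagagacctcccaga
CCAAT was found for 4 of 4 class II genes with a window (100%), against 41.1% of all genes, and for 18 of 27 mitosis genes (66.7%). It is a short motif, and it overlapped an E2F match in 148 of 32851 windows.

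Macrophage and granulocyte genes moved in opposite directions. Apoe, a lipid carrier of macrophages, lay at 1.27 and 1.12 under blockade and at -1.41 and -1.06 without it, a rise of 2.43 ± 0.13 (adjusted p = 3.51e-05). Cybb, the oxidase subunit of phagocytes, rose by 1.30 ± 0.16, and its call was lost without both arrays with unusual spike-ins (adjusted p = 0.0557). In the neutrophil list 7 of 10 markers fell, and 3 missed the threshold, a share of falls near the 68.5% of all named genes. The count was 9 with only the CD4 arrays, 10 without either CD8 untreated array and 6 without either CD4 blockade array or CD4 untreated replicate 2. S100a8, which forms calprotectin with S100a9, lay at -1.84 and -1.41 against 2.15 and 2.42, a change of -3.91 ± 0.34. S100a9 and Ngp, a granule protein, changed by -4.00 ± 0.46 and -3.98 ± 0.48, Ctsg by -2.91 ± 0.12 and Mpo by -2.33 ± 0.13. Chil3 had a change of -2.23 ± 0.72 and did not pass (adjusted p = 0.177). It passed with only the CD4 arrays (adjusted p = 0.000778) and without either CD8 untreated array, which stood at 3.14 and 0.28. All 5 mast cell and basophil genes fell, against 68.5% of all named genes. Cpa3, the mast cell carboxypeptidase, lay at -1.90 and -2.48 against 2.04 and 1.90, a change of -4.17 ± 0.20 (adjusted p = 1.41e-05). Mcpt8, a basophil protease, changed by -3.34 ± 0.35, the IgE receptor chain Fcer1a by -3.31 ± 0.14 and the chymase Cma1 by -2.63 ± 0.16. Ms4a2, the second IgE receptor chain, changed by -1.13 ± 0.23, and its call was lost without either blockade array, without CD4 untreated replicate 2 and without either CD8 blockade array (adjusted p 0.0593 to 0.183).

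Among the 102 named genes in no list, 56 were called lower, 42 higher and 4 did not pass. Dnah7b, a heavy chain of ciliary dynein, lay at -0.34 and -0.59 under blockade and at 4.00 and 4.71 without it, a change of -4.82 ± 0.21 (adjusted p = 7.81e-06). Itih5, of the inter-alpha-trypsin inhibitor family, lay at -0.52 and -0.35 against 3.92 and 4.30, a change of -4.54 ± 0.15. Crisp3, a cysteine-rich secretory protein, had the largest rise of the named genes, at 2.04 and 1.76 under blockade and -1.91 and -1.57 without it, a change of 3.64 ± 0.18 (adjusted p = 1.57e-05). The transcript A530030E21Rik rose by 2.47 ± 0.20. Of probe sets with no name here, 1417185_at changed by -5.14 ± 0.15 and 1458589_at by -4.78 ± 0.14, and 1460118_at rose by 2.31 ± 0.13 and 1458341_x_at by 1.98 ± 0.11.

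The blockade effect in CD4 cells was set against that in CD8 cells of the same design by testing the difference itself. Of 45037 probe sets, 28 differed (0.0622%), 26 of them with the lower change in CD4 cells. An unadjusted p under 0.05 was found for 2253, about as many as that threshold passes when no probe set differs. Among the named genes 4 differed, all with a larger fall in CD4 cells. For Dnah7b the change in CD8 cells was -1.31 ± 0.21, with values of -0.89 and -0.84 under blockade and 0.55 and 0.34 without it. The CD4 change exceeded it by -3.51 ± 0.29 (adjusted p = 0.0076). The untreated CD4 cells stood at 4.00 and 4.71, far above the untreated CD8 cells, while the blockade-treated cells of both subsets lay close together. For Itih5, with a CD8 change of -1.43 ± 0.15, the difference was -3.11 ± 0.21 (adjusted p = 0.00305). Tnfrsf9 and Gbp3 changed by -2.93 ± 0.16 and -1.95 ± 0.10 in CD8 cells, and the differences were -1.94 ± 0.23 (adjusted p = 0.0435) and -1.23 ± 0.14 (adjusted p = 0.0413). Quantile normalization gave -1.06 for Tnfrsf9 and -0.75 for Gbp3, neither past the threshold. Without both arrays with unusual spike-ins 0 probe sets passed in limma, with 2130 at an unadjusted p under 0.05. That fit kept only 1 array in the CD4 untreated and 1 in the CD8 blockade group. Its counts therefore cannot tell unusual arrays from lost replication. For the other named genes no difference was called, which does not show that the subsets responded alike.

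**Figure D5:**
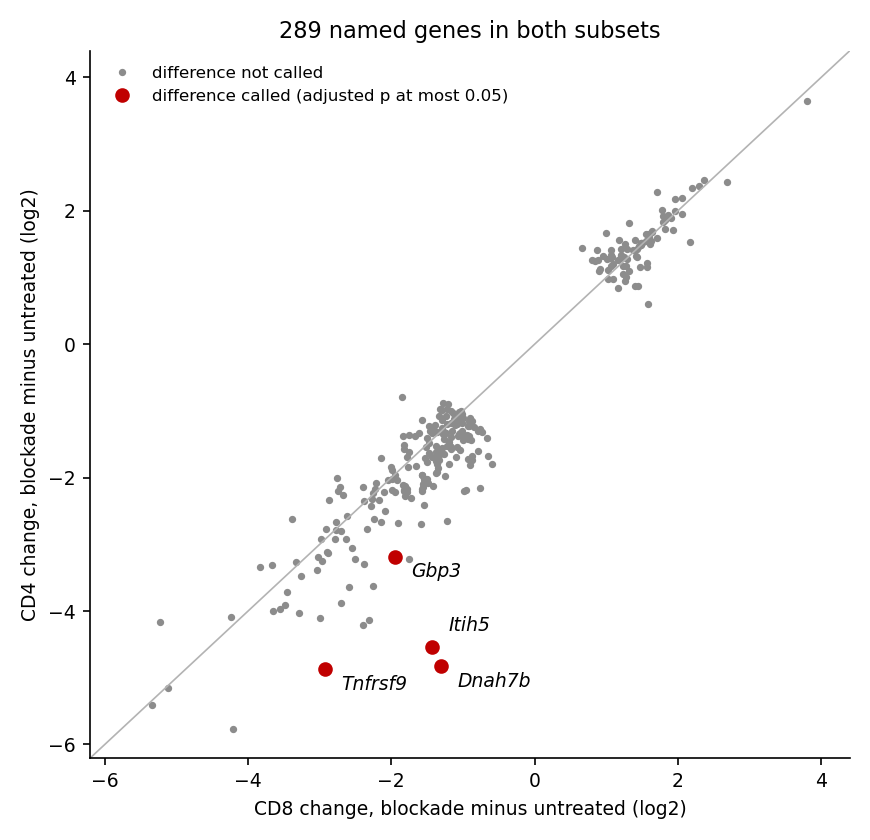
CD4 change against CD8 change (blockade minus untreated, log2) of the 289 named genes; the line marks equal change, and red points are the 4 genes whose difference was called. Dnah7b and Itih5 lie at -4.82 and -4.54 in CD4 cells and at -1.31 and -1.43 in CD8 cells.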

How the data were processed

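RNA of sorted cells was hybridized to Affymetrix Mouse430_2 arrays, as the file headers name them. The deposited table held log2 values for 45101 probe sets, of which 64 array controls were left out, and each probe set had been centred by the authors on its median over the 8 arrays (largest deviation 5e-07). No source used here gives the base of the logarithm, and log2 was assumed from the layout of the authors' list. How probes were summarised and arrays normalized is not stated in the sources used here. With no signal level, dim probe sets could not be filtered.

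Names came from the deposited list, where 375 probe sets had 1 gene, 22 several and 12 none; 369 identifiers matched RefSeq genes of GRCm38.p6, and 30 symbols were updated. The 8 per-array columns of that second table were not used. Values of a gene's listed probe sets were averaged, leaving 44951 features. limma 3.58.1 (R 4.3.3) fitted a mean per group over all 8 arrays with eBayes; tests were two-sided, p-values were adjusted over all features by Benjamini-Hochberg and called at 0.05. The fit was tested on simulated data. Residual degrees of freedom were 4 and prior ones 4.46. The figures were drawn with matplotlib 3.10.9 in Python 3.11.15.

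The members, gene lists and rule for named genes were chosen with earlier results of these data known. Up to 6 members per list with the largest change, members called against their list, the 10 largest called rises and falls, 2 unnamed probe sets each way and named genes differing from CD8 were described. Genes and motifs outside that rule were chosen after their values were seen. Alternatives were the CD4 arrays alone, the replicate number as a block, array weights, robust eBayes and leaving out arrays. Quantile normalization of the centred values and only the probe sets with a range above the median range were further ones. One label calls the staining antibodies anti-human although the cells were murine. Some genes are not reported here.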

Additional observations from a re-analysis of the deposited data

Results flagged for a closer look

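Each of these genes stood out because its blockade effect differed between CD4 and CD8 cells in limma's test of the difference itself. The CD4 change minus the CD8 change was -3.51 for Dnah7b (adjusted p = 0.0076), -3.11 for Itih5 (adjusted p = 0.00305), -1.94 for Tnfrsf9 (adjusted p = 0.0435) and -1.23 for Gbp3 (adjusted p = 0.0413). All 4 fell in both subsets. The difference for Itih5 passed in each fit without 1 array. That for Dnah7b did not pass without either CD4 blockade array or either CD8 blockade array (adjusted p 0.062 to 0.0823), that for Tnfrsf9 passed without CD4 untreated replicate 1 and in no other such fit, and that for Gbp3 passed in none of them. No group held 4 arrays or more, so single arrays could not be tested as outliers.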

How the results depend on the processing

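Of 125 genes followed through the alternatives, 0 changed direction and 88 kept their side of the threshold in every one. The count of calls in CD4 cells ranged from 768 to 1516 without 1 array, higher ones from 266 to 611 and lower ones from 495 to 905, against 1650, 675 and 975. Without both arrays with unusual spike-ins they were 634, 211 and 423. The number of probe sets differing between CD4 and CD8 ranged from 5 to 26 without 1 array, was 0 without both unusual arrays and 62 among the probe sets with a range above the median range, a filter on the same arrays that also moved the prior degrees of freedom from 4.46 to 10.9. With the replicate block, 1504 probe sets were called in CD4 cells and 26 differed between subsets. Over all probe sets, the difference between array 1 and array 2 correlated little from group to group (-0.03 to 0.078). Such a correlation, over mostly uncalled probe sets, cannot tell whether arrays of the same number shared more than that number. In untreated CD8 cells, as in CD4 cells, replicate 2 had the higher mean for replication (1.12 against 0.715), cyclin (0.90 against 0.63) and mitosis genes (0.83 against 0.63). For neutrophil genes it had the lower mean in CD8 cells (0.93 against 1.73), unlike in CD4 cells. Under the block Fabp4 lost its call and Ms4a3 and Spc24 passed, while the differences of Tnfrsf9 and Gbp3 did not pass (adjusted p = 0.0723 and 0.0754). With only the CD4 arrays 1391 probe sets were called, with Ms4a2 and Tk1 among the genes that lost their call. Quantile normalization gave 1731 calls, 776 higher and 955 lower, without Ccl9, and reduced the differences of Dnah7b, Itih5, Tnfrsf9 and Gbp3 to -2.53, -2.19, -1.06 and -0.75. Array weights gave 1801 calls and robust eBayes 1605. The listed probe set with the smallest change kept the CD4 call of every gene tried. The cause of these shifts was not tested. Signal over background is unknown here, so what it limits could not be read.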

Other observations

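Genes outside the lists, named after their values were seen, add to the picture of the CD4 cells. Fscn1 and Scin, proteins that bundle or cut actin filaments, lay at -1.13 and -1.23, and at -1.11 and -1.08, on the blockade arrays. On the untreated arrays Fscn1 stood at 1.78 and 3.60 and Scin at 2.10 and 2.49. Fscn1 changed by -3.87 ± 0.47 and Scin by -3.39 ± 0.15. The 2 untreated arrays were far apart for Fscn1 and close for Scin. The calcium-binding protein S100a6 and the galectin Lgals1 changed by -2.18 ± 0.21 and -1.88 ± 0.25, with the higher value on CD4 untreated replicate 2 for both. The call of Lgals1 was lost without both arrays with unusual spike-ins (adjusted p = 0.0664). Il18bp, the soluble inhibitor of interleukin-18, changed by -3.22 ± 0.25, the nucleotide hydrolase Samhd1 by -1.73 ± 0.09 and Xbp1, a factor of the secretory pathway, by -1.23 ± 0.11.

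Among the rises, the transcription factors Mef2c and Tcf4 rose by 1.83 ± 0.12 and 1.55 ± 0.15 and the Fc receptor-like gene Fcrl1 by 1.68 ± 0.11, amounts within the range of the B cell markers. H2-Ea, a class II gene, rose by 1.62 ± 0.12 over 2 listed probe sets. C57BL/6 mice are known to carry a promoter deletion that silences this gene, and what its probe sets bound was not tested.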
